A study of Mus musculus with 6 samples.

Results

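The collagen genes are described here across the liver, ovary and uterus of immature mice given fluorene-9-bisphenol (BHPF), a substitute for bisphenol A in plastics, or the carrier oil. The members were all non-control array probes whose transcript identifier mapped to a symbol of the form Col, number, a, number. There were 61 such probes, for 42 genes, of 55681 non-control probes on the array. RefSeq lists 44 mouse genes with such a symbol, and Col6a3 and Col12a1 had no probe that could be named. A probe was called detected where the scanner software marked it well above background. By that mark 54 probes, for 40 genes, were detected on at least 1 array and 35 on all 6. The other 7 probes were detected nowhere and received no test: they are the probes for Col2a1 and Col19a1, and 1 probe each of Col6a5, Col6a6, Col8a2, Col23a1 and Col25a1.

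Collagens are secreted proteins in which 3 chains wind into a triple helix. The fibrillar collagens (types I, II, III, V, XI and relatives) form the cable-like fibrils of connective tissue. Type IV forms the network of basement membranes, the sheets beneath epithelia and around vessels and muscle cells. Type VI forms beaded filaments, fibril-associated collagens decorate fibril surfaces, and type VII anchors epithelial basement membranes to the stroma. In these organs collagens are made mainly by stromal fibroblasts, smooth muscle cells, endothelium and, in liver, stellate cells. Collagen turnover in the uterus is known to respond to oestrogen and progesterone, and the study asked whether BHPF acts against oestrogen.

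The mice were CD-1 females aged 24 days. They had received BHPF at 50 mg/kg body weight, or peanut oil alone, by stomach tube each day for 3 days, and no other allele or agent is named. Each of the 6 groups (liver, ovary and uterus, each control or BHPF) was measured on 1 single-colour Agilent array that carried RNA pooled from 3 mice. Every group is therefore 1 sample: within a tissue there is no replicate, no p-value, and no estimate of how mice differ. All 6 arrays lay on 1 slide in 1 scan, the controls in one row of array positions and the BHPF pools in the other, so position and treatment cannot be told apart. A level below is log2 of the processed signal minus that array's 75th percentile, and levels are never compared between different probes. Differences between tissues were tested with limma over all 44119 probes detected on any array, in a fit with tissue and treatment as terms, which gives each tissue 2 arrays. A tissue difference was called where the adjusted p was below 0.05 and the difference at least 2-fold. Of all probes on an array, 61.3% to 74.5% were detected, against 62.3% to 85.2% of the 61 collagen probes.

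Most listed marker probes of uterus (such as Hoxa11) and ovary (such as Zp2, Bmp15 and Fshr) were called higher there, but hepatocyte genes were also raised in the uterus BHPF pool relative to its control. Of 11 uterus-list probes 9 were called higher in uterus than liver (21.1% of all probes) and 10 higher than ovary (9.33%). Of 10 ovary-list probes 8 were called higher in ovary than liver (22.4%) and 8 higher than uterus (8.53%). The ovary list's summed linear level was 65.1 and 68.2 in the ovaries, 35.0 and 36.9 in the livers, and 21.2 and 25.3 in the uteri. In the livers that sum came from few probes: 4 of the 10 were detected in the control and 3 in the BHPF pool. The median log2 difference of the list between ovary and liver was 8.23. The sign of every uterus BHPF ratio here rests on the labels of the scanner files: the authors' normalized table, as headed, gives the opposite sign, because its uterus columns hold each other's array. By the scanner labels all 11 probes of 9 hepatocyte genes were at least 2-fold higher on the uterus BHPF array than on the uterus control array, with a median log2 ratio of 3.94. Albumin stood at -0.92 in the control uterus and 3.36 in the BHPF uterus, against 6.07 in the control liver. The summed linear level of that list was 3.56 and 48.6 in the 2 uterus pools, and 455 and 452 in the livers. Neutrophil genes were lower with BHPF, at least 2-fold in 7 of 7 probes in liver, 5 of 7 in ovary and 4 of 7 in uterus. The part of either shift in the collagen values was not tested. In such whole-organ RNA, fewer cells of a type and less RNA per cell cannot be told apart.

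The sequences just upstream of the annotated start are printed for genes with unlike tissue patterns: Col1a2, Col3a1 and Col7a1, all highest in uterus, Col18a1, highest in liver, and Col11a1, highest in ovary. They are the 250 bases before the start on the gene's own strand, from RefSeq, build GRCm38.p6, which holds 38 such windows for 35 of the collagen genes. Capitals mark matches on either strand to the CCAAT box, to TATAAA (the core of the TATA box) and to the GC box core GGGCGG, and matches may overlap. A match is of letters alone, anywhere in the window and at any distance from the start, so it does not show a working box.
Col1a2, chr6:4505368-4505617, strand plus: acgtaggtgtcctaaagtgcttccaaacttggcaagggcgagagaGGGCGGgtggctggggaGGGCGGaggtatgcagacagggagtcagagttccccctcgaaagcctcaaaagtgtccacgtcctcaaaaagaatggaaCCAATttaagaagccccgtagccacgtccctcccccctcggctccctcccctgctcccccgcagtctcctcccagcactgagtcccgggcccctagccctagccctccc
Col3a1, chr1:45311288-45311537, strand plus: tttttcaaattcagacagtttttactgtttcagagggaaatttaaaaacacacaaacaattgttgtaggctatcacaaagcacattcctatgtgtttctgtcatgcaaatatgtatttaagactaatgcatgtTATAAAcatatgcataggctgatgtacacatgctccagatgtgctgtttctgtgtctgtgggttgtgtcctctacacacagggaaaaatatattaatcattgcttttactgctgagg
Col7a1, chr9:108953336-108953585, strand plus: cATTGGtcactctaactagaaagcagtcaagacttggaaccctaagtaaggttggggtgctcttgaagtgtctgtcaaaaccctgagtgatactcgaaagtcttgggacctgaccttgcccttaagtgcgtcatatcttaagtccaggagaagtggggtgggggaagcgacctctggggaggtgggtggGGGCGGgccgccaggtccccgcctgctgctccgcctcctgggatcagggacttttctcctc
Col18a1 (start at 77166530), chr10:77166531-77166780, strand minus: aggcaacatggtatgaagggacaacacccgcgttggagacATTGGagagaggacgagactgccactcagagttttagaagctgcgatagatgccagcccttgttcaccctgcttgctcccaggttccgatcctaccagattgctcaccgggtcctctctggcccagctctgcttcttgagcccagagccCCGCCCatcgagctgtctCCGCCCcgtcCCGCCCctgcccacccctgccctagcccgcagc
Col18a1 (start at 77113705), chr10:77113706-77113955, strand minus: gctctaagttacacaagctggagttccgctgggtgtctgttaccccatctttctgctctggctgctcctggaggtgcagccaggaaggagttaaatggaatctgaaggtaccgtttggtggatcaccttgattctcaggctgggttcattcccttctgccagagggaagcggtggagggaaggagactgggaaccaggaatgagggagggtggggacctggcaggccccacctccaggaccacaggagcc
Col11a1, chr3:114030290-114030539, strand plus: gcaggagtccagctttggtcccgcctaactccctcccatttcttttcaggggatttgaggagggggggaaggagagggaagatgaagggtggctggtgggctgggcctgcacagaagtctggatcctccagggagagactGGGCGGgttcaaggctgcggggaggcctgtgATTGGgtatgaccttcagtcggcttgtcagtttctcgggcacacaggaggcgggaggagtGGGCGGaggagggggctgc
The TATAAA letters stand in the Col3a1 window and in 12.4% of all 32851 mouse windows, and in 5 of the 38 collagen windows. CCAAT or its complement is in 33.8% of all windows and in 13 of 38 collagen windows. GGGCGG or its complement is in 32.7% of all windows and in 22 of 38 collagen windows (57.9%), among them Col1a2, Col7a1, Col11a1 and the first Col18a1 window. The second Col18a1 window holds none of these letters. The Col18a1 windows lie upstream of 2 annotated starts, and the array cannot say which of them the measured RNA came from.

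Many collagen probes were higher in uterus or ovary than in liver. Between uterus and liver 31 of 54 tested probes, for 25 genes, were called higher in uterus, where 21.1% of all probes tested were, and 3 were called higher in liver (15.2% of all probes). Between ovary and liver 27 were called higher in ovary, where 22.4% of all probes were, and 5 higher in liver (16.9%). Between uterus and ovary 22 were called higher in uterus, where 9.33% of all probes were, and 5 higher in ovary (8.53%). A probe that entered only through a tissue where it is high had to differ. In 9 of the 31 probes called over liver in uterus, and in 9 of the 27 in ovary, neither liver array was well above background, and the 2-fold limit was met by the fitted value. As a bound the difference was under 2-fold for Col4a4 (probe 1), Col6a4 (probe 1), Col6a6 and Col9a3 in uterus, and for Col9a3 and Col15a1 (probe 2) in ovary. For Col6a4 (probe 1) and Col28a1 in ovary no bound above liver could be given. Among the 35 probes detected on all 6 arrays, fitted with the other probes so detected, 20 were called higher in uterus than liver (16.1% of all such probes), 16 higher in ovary than liver (15.8%) and 17 higher in uterus than ovary (8.07%). In the other direction 2 were higher in liver than uterus (16.2%), 5 higher in liver than ovary (18.1%) and 1 higher in ovary than uterus (5.55%). The uterus-to-ovary calls rest on 4 arrays: without 1 of them the count of probes called higher in uterus fell from 22 to 6 (ovary control left out), 7 (ovary BHPF), 3 (uterus control) or 4 (uterus BHPF), and the count higher in ovary to 1, 1, 2 and 0.

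**Figure D1:**
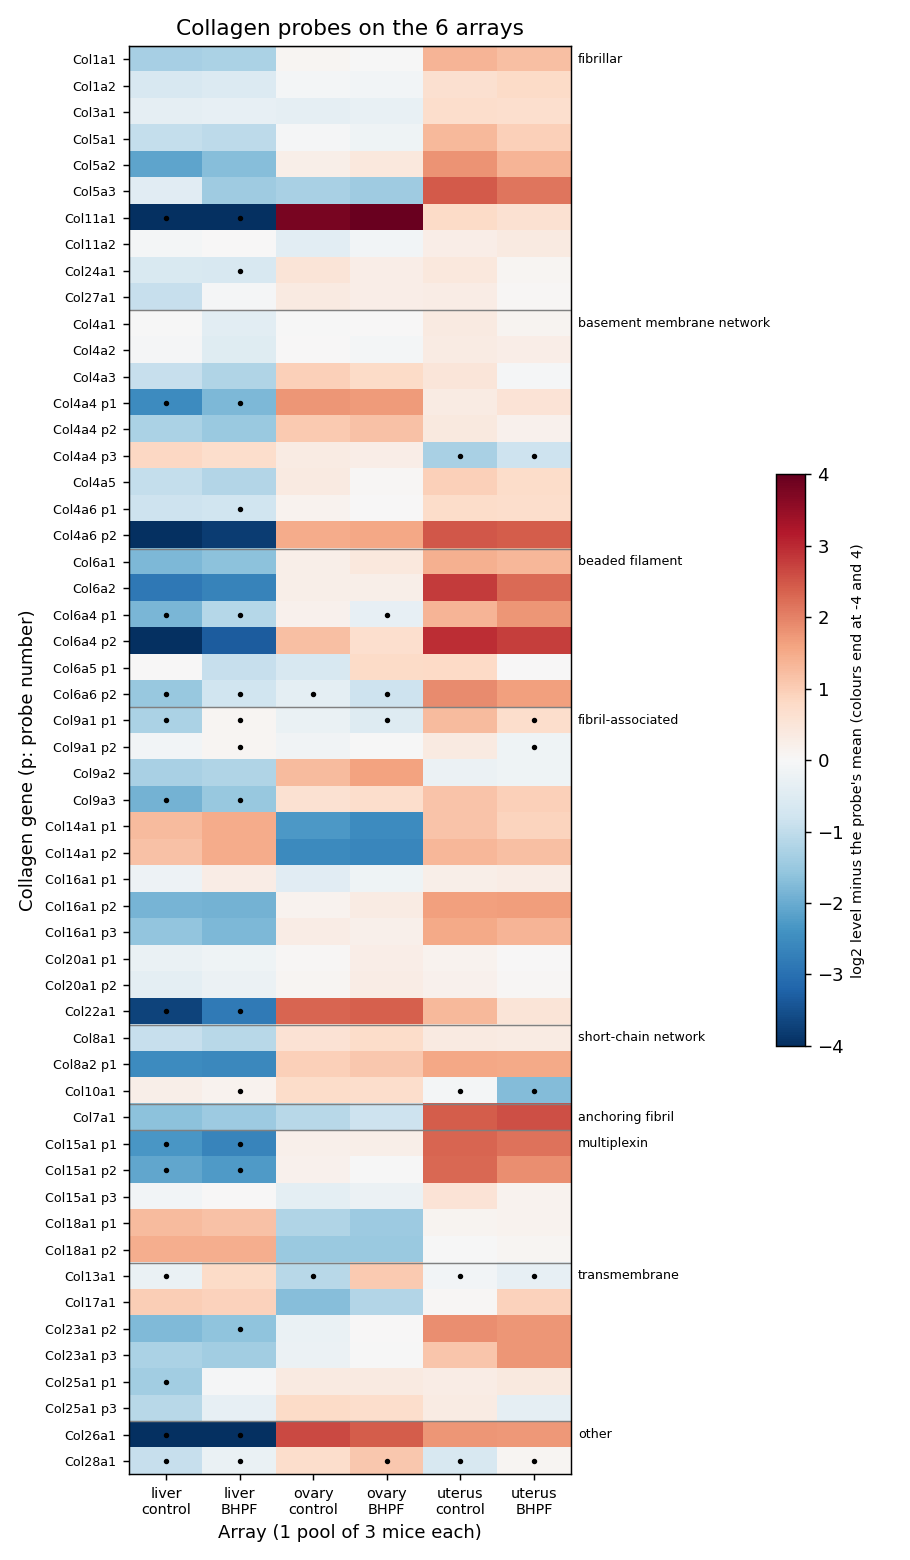
Levels of the 54 detected collagen probes (rows, by class; p gives the probe number where a gene has several) on the 6 arrays (columns), as log2 level minus the probe's own mean, with colours ending at -4 and 4. Black dots mark arrays where the probe was not well above background. Red in the 2 right-hand columns shows that most fibrillar and beaded-filament probes were highest in uterus, while Col14a1 is lowest in ovary and Col18a1 highest in liver.

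As a simple order, the uterus was the highest tissue on both the control and the BHPF arrays for 28 of the 54 probes, against 22.8% of all probes. The ovary was highest for 13 (21.5% of all probes) and the liver for 4 (34.8%). For the other 9 the highest tissue differed between control and BHPF arrays, as it did for 20.8% of all probes.

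The chains of the main fibrillar collagens, types I, III and V, were highest in uterus, while the order of liver and ovary varied. Col1a1, which encodes the chain present as a pair in type I collagen, had levels of 1.66 and 1.72 in liver (control, then BHPF), 3.05 and 2.96 in ovary, and 4.34 and 4.18 in uterus. The 3 tissues did not overlap, and each step was called: uterus exceeded liver by 2.57 ± 0.14 (log2, SE; 5.93-fold, limma adjusted p = 0.00104) and ovary by 1.25 ± 0.14 (adjusted p = 0.00995). Col1a2, the partner chain of type I, read 3.36 and 3.43 in liver, 3.90 and 3.88 in ovary, and 4.64 and 4.75 in uterus. Its order was the same with a smaller span, 2.46-fold between uterus and liver (adjusted p = 0.00347), and the ovary lay 0.50 ± 0.13 above liver, which passed the test (adjusted p = 0.0343) but not the 2-fold limit.

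Col3a1, the only chain of type III collagen, was set apart by its ovary value. It stood at 3.97 and 4.0 in liver, 3.97 and 4.02 in ovary, and 5.05 and 5.0 in uterus. Ovary and liver could not be separated (difference 0.01, 95% interval -0.34 to 0.37), and uterus was 2.05-fold above liver (adjusted p = 0.00573) and 2.04-fold above ovary (adjusted p = 0.0132). Scaling on the 50th percentile in place of the 75th turned the small ovary difference to -0.31 (adjusted p = 0.19).

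The type V chains, which nucleate type I fibrils and limit their width, were also higher in uterus. Col5a1 measured 0.62 and 0.53 in liver, 1.53 and 1.40 in ovary, and 2.88 and 2.53 in uterus. Col5a2 ran from -2.75 and -2.35 in liver through -0.41 and -0.21 in ovary to 1.14 and 0.70 in uterus. The uterus exceeded the liver 4.36-fold for Col5a1 (adjusted p = 0.00155) and 11.1-fold for Col5a2 (adjusted p = 0.00183). Col5a3, another type V chain, did not follow them in the ovary: it was at -1.83 and -2.80 in liver, -2.69 and -2.82 in ovary, and 1.08 and 0.74 in uterus. Its uterus-to-ovary difference of 3.67 ± 0.25 (12.7-fold, adjusted p = 0.00412) was among the 3 largest of all collagen probes, while ovary and liver could not be separated (adjusted p = 0.206).

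**Figure D2:**
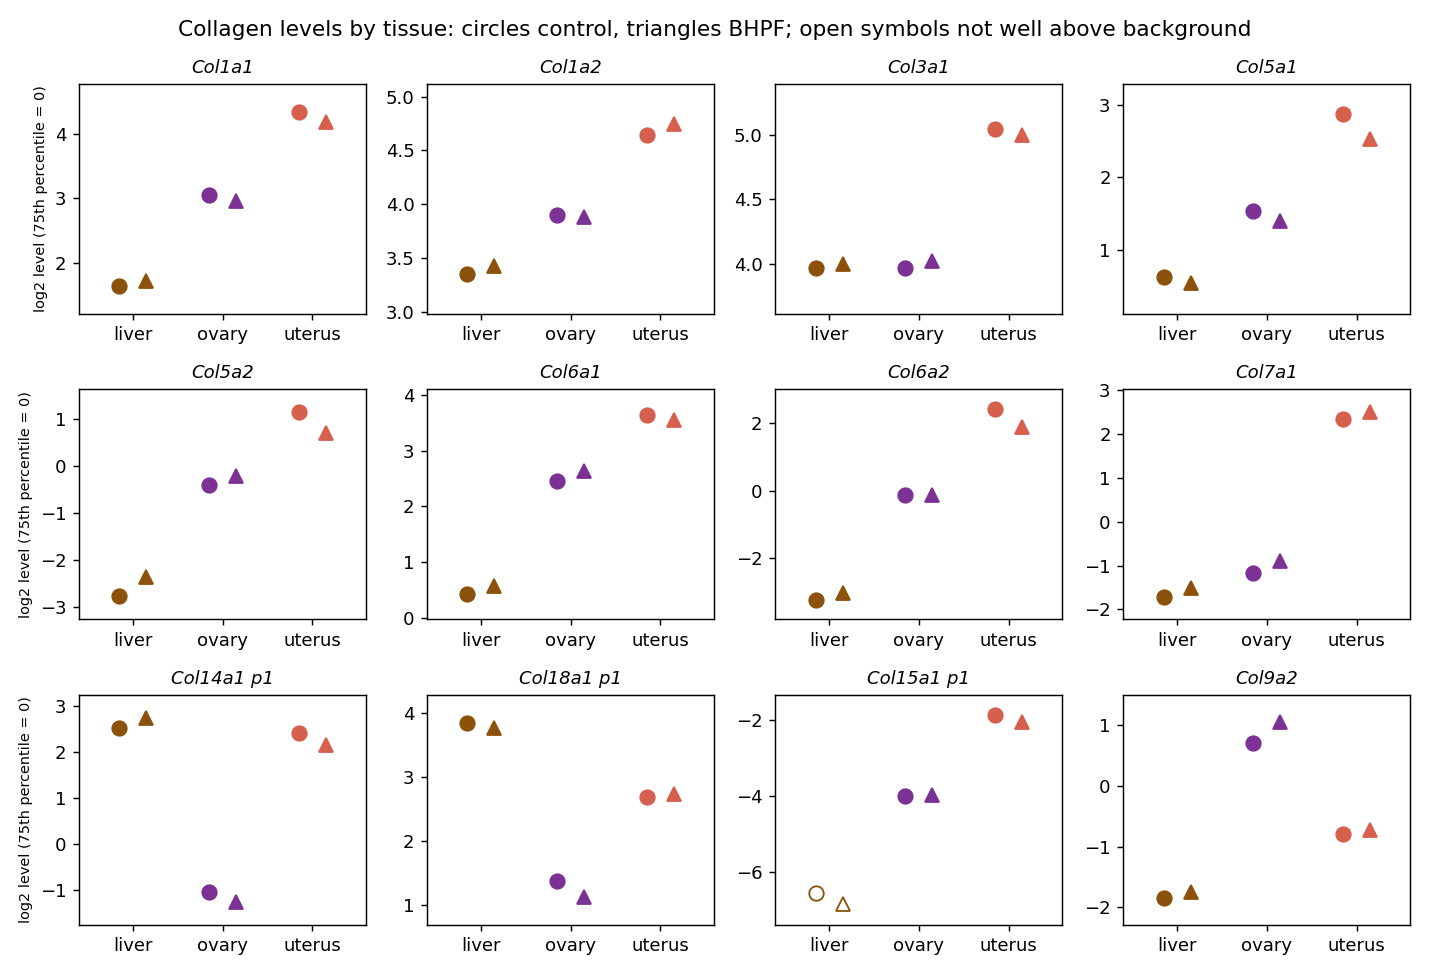
Levels of 12 collagen probes in the 3 tissues, as log2 signal relative to the array's 75th percentile, with circles for control pools, triangles for BHPF pools and open symbols where the probe was not well above background. Each symbol is 1 array. For Col1a1 the control and BHPF symbols differ by 0.06 to 0.15 within a tissue, against 2.57 between uterus and liver.

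The type XI chain Col11a1, a fibrillar collagen best known from cartilage, had the opposite order of the reproductive organs. It was not well above background in liver, at -7.74 and -7.17, and stood at 0.91 and 1.07 in ovary and at -2.12 and -2.30 in uterus. The ovary was at least 76.3-fold above liver (limma adjusted p = 0.000655), and uterus lay 3.20 ± 0.23 below ovary (9.16-fold, adjusted p = 0.0043). This was the largest ovary excess of any collagen probe. Col11a2, its partner in cartilage, had levels between -4.09 and -3.32 on all 6 arrays and no called difference. Col24a1 was well above background on 1 of the 2 liver arrays, at -4.88 and -4.93, with -3.77 and -4.02 in ovary, so its call as higher in ovary than liver (adjusted p = 0.00831) lies at the 2-fold limit and rests partly on an undetected value. Col27a1 was called in no contrast. Col2a1, the main cartilage collagen, was detected on no array.

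The basement membrane chains fall into 3 gene pairs that lie head to head in the genome, and their tissue patterns are given pair by pair. Col4a1 and Col4a2, which form the network found in nearly all basement membranes, had no called difference. In RefSeq their annotated starts are 21 bases apart on opposite strands, and the stretch that holds both is printed here, with the 2 start bases in capitals (the first is that of Col4a2, which reads along the printed strand, and the second that of Col4a1, which reads against it).
Col4a2 and Col4a1 starts, chr8:11312801-11312830, strand plus: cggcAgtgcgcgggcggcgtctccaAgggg
Col4a1 had levels of 2.65 and 2.24 in liver, 2.64 and 2.69 in ovary, and 3.03 and 2.78 in uterus. For Col4a2 the levels were 2.63 and 2.20 in liver, 2.69 and 2.61 in ovary, and 3.01 and 2.94 in uterus. The uterus lay 0.46 ± 0.17 above liver for Col4a1 (adjusted p = 0.0877) and 0.56 ± 0.16 for Col4a2 (adjusted p = 0.0492, but under 2-fold).

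Col4a5 and Col4a6, whose chains join in the basement membranes of smooth muscle and some epithelia, were low in liver and highest in uterus. Their annotated starts are 1343 bases apart on the X chromosome. Col4a5 read -0.08 and -0.30 in liver, 1.20 and 0.92 in ovary, and 1.83 and 1.58 in uterus, a 3.73-fold excess of uterus over liver (adjusted p = 0.00152). The second Col4a6 probe ran from -5.07 and -4.70 in liver to 0.57 and 0.63 in ovary and 1.59 and 1.51 in uterus. That is 86.3-fold between uterus and liver (log2 6.43 ± 0.17, adjusted p = 0.000704) and 44.7-fold between ovary and liver. The first Col4a6 probe gave the same order with a fitted 2.89-fold between uterus and liver, but was detected on only 1 of the 2 liver arrays. The windows of both genes lie between their starts, and each holds GGGCGG or its complement.
Col4a5, chrX:141475169-141475418, strand plus: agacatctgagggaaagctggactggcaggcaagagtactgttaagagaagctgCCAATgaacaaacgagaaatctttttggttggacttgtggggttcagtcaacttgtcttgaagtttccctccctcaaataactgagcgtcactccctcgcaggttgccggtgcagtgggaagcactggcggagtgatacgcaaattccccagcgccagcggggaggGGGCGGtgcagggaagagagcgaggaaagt
Col4a6, chrX:141474077-141474326, strand minus: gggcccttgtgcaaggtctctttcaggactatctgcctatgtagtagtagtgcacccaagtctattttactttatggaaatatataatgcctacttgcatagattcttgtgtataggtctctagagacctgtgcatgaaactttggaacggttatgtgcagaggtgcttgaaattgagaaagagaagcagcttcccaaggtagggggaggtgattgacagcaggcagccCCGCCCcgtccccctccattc

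Col4a3 and Col4a4, known from the basement membranes of the kidney glomerulus, lung and inner ear, were higher in ovary than liver except on 1 probe. Col4a3 stood at -3.59 and -3.87 in liver, -1.74 and -1.92 in ovary, and -2.21 and -2.73 in uterus, so that ovary was 3.74-fold above liver (adjusted p = 0.00206), while uterus and ovary were not separated by the test (adjusted p = 0.0563). The second of 3 Col4a4 probes had levels of -1.24 and -1.45, 1.09 and 1.20, and 0.43 and 0.21 in the same order, with ovary 5.61-fold above liver (adjusted p = 0.00127). The first Col4a4 probe had the same order, but was not detected in liver (ovary at least 4.25-fold higher). The third disagreed: it read -3.36 and -3.49 in liver, -3.85 and -3.91 in ovary, and was not well above background in uterus, so that liver was at least 3.55-fold above uterus (adjusted p = 0.00473). The direction for Col4a4 between uterus and liver therefore depends on the probe, being positive on 2 and negative on 1.

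**Figure D3:**
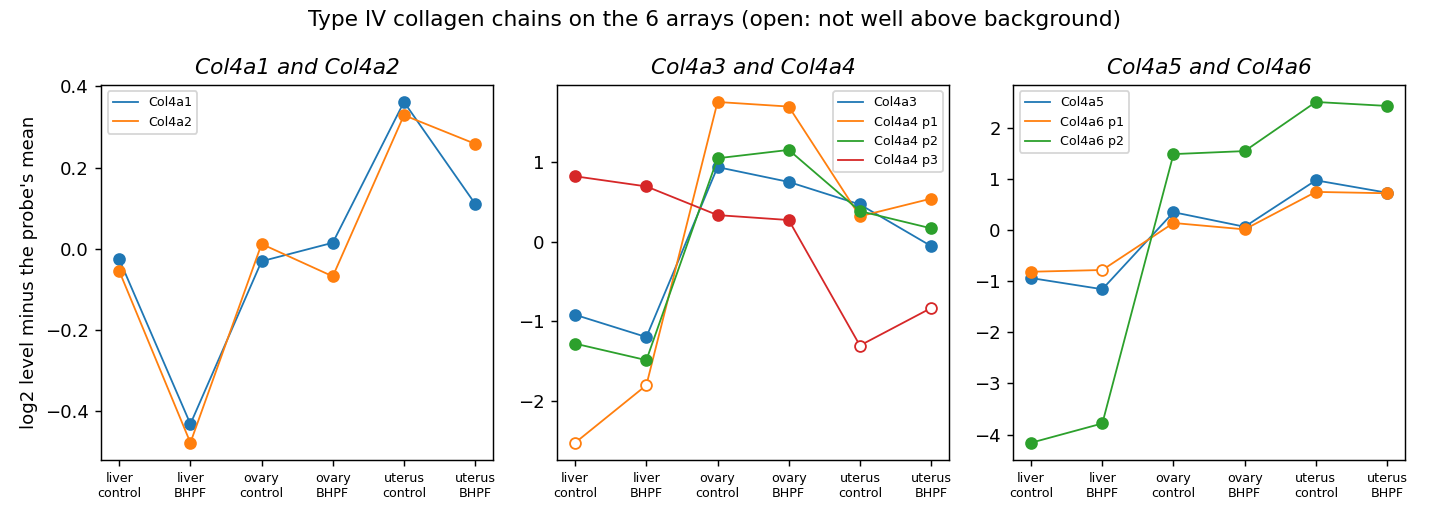
Type IV collagen probes on the 6 arrays in the 3 genomic pairs, as log2 level minus the probe's own mean, lines joining the values of 1 probe and open circles marking signals not well above background. Col4a1 and Col4a2 dip together in the liver BHPF pool by 0.41 and 0.42, and the third Col4a4 probe runs against the other 2.

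Type VI collagen, which forms beaded filaments around cells and is widely made by fibroblasts and muscle, was lowest in liver and highest in uterus on most probes. Col6a1 had levels of 0.43 and 0.57 in liver, 2.46 and 2.64 in ovary, and 3.64 and 3.55 in uterus (8.54-fold between uterus and liver, adjusted p = 0.000869). For Col6a2 they were -3.24 and -3.03, -0.13 and -0.14, and 2.43 and 1.90, a span of 39.4-fold (adjusted p = 0.000792). The widest difference of any collagen probe detected in every tissue was that of the second Col6a4 probe. It ran from -4.65 and -3.75 in liver to 0.80 and 0.25 in ovary and 2.54 and 2.35 in uterus, 100.1-fold between uterus and liver (log2 6.65 ± 0.40, adjusted p = 0.00129). Col6a6 was detected in uterus alone, on 1 of its 2 probes, at -4.21 and -4.44. Its uterus level was at least 3.27-fold above ovary. For Col6a5 no tissue difference was called.

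Among the fibril-associated collagens, Col14a1 had a pattern of its own. Col14a1, which binds fibrils through decorin, gave levels on its first probe of 2.52 and 2.74 in liver, -1.05 and -1.26 in ovary, and 2.40 and 2.14 in uterus. The second probe read -0.92 and -0.59, -4.63 and -4.70, and -0.76 and -0.88. Both put ovary far below liver, by 13.8-fold and 15.1-fold (adjusted p = 0.000854 and 0.000782), and below uterus by 10.7-fold and 14.4-fold. Liver and uterus could not be separated on either probe (adjusted p = 0.171 and 0.768), and the sign of that small difference turned with the scaling.

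The Col16a1 probes did not act as 1. Col16a1 belongs to smooth muscle and stromal matrix, and its second probe read -0.60 and -0.63 in liver, 1.41 and 1.60 in ovary, and 2.93 and 2.94 in uterus (11.7-fold between uterus and liver, adjusted p = 0.000737). The third agreed in order, with 8.70-fold, while the first stayed between -3.10 and -2.34 everywhere and was called in no contrast. Col9a2, a chain of type IX collagen of cartilage and eye, was highest in ovary: -1.84 and -1.75 in liver, 0.71 and 1.06 in ovary, -0.78 and -0.73 in uterus. It was 6.42-fold above liver there (adjusted p = 0.00104) and 3.13-fold above uterus (adjusted p = 0.00679). Col22a1, which marks tissue junctions such as those of muscle and tendon, was not detected in liver and read -1.89 and -1.81 in ovary and -2.92 and -3.70 in uterus, with ovary at least 10.6-fold above liver (adjusted p = 0.00189). Col9a3, a partner chain of Col9a2, was not detected in liver at -7.40 and -7.00 and read -4.90 and -4.79 in ovary and -4.36 and -4.55 in uterus. Its excess over liver was at least 1.34-fold in ovary and at least 1.75-fold in uterus. Both Col20a1 probes were detected on all 6 arrays and called in no contrast.

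The short-chain network collagens were higher in the reproductive organs than in liver on the Col8a1 and Col8a2 probes. Col8a2, a short-chain collagen of Descemet's membrane and vessel walls, measured -3.68 and -3.72 in liver, -0.21 and -0.07 in ovary, and 0.40 and 0.37 in uterus, 17.0-fold between uterus and liver (adjusted p = 0.000705). Its partner Col8a1 was 3.19-fold higher in ovary than liver (adjusted p = 0.00273). Col10a1, the collagen of hypertrophic cartilage, read -4.95 and -5.04 in liver (the second not detected), -4.45 and -4.46 in ovary, and -5.27 and -6.90 in uterus, where it was not detected. Its uterus and ovary values were not separated by the test (adjusted p = 0.0855).

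Col7a1, the anchoring fibril collagen made by epithelia, was far higher in uterus than in the other tissues. It stood at -1.71 and -1.51 in liver, -1.17 and -0.91 in ovary, and 2.35 and 2.51 in uterus. Uterus was 16.5-fold above liver (log2 4.04 ± 0.13, adjusted p = 0.000705) and 11.1-fold above ovary (adjusted p = 0.00185), and ovary was 0.57 above liver, under 2-fold. Beside it, the summed linear level of 6 epithelial genes was 43.0 and 46.0 in uterus, 6.84 and 6.58 in ovary, and 31.3 and 32.0 in liver. Such a sum gives most weight to the brightest probes. Probe by probe, 4 of the 7 were called higher in uterus than liver (21.1% of all probes) and 0 higher in liver (15.2%). Their median log2 difference between uterus and liver was 3.18.

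The multiplexins, whose tail fragments include endostatin, went in opposite directions relative to liver, but both were higher in uterus than ovary. Col18a1, the source of endostatin, read 3.85 and 3.77 in liver, 1.37 and 1.13 in ovary, and 2.69 and 2.74 in uterus on its first probe. The second read 3.50 and 3.48, 0.56 and 0.54, and 2.02 and 2.11. Liver was above uterus by 2.14-fold and 2.69-fold (adjusted p = 0.00675 and 0.00282) and above ovary by 5.88-fold and 7.68-fold (adjusted p = 0.00107 and 0.000772). Its uterus level exceeded that of ovary by 2.75-fold and 2.86-fold (adjusted p = 0.00815 and 0.00607). Col18a1 was the only gene among the 42 called higher in liver than in both other tissues on every probe. Col15a1, found in the basement membrane zone of muscle and vessels, was not detected in liver on 2 of 3 probes. The first of these read -4.01 and -3.98 in ovary and -1.88 and -2.04 in uterus, at least 9.87-fold above liver and 4.09-fold above ovary (adjusted p = 0.00455). The second put uterus at least 6.98-fold above liver and 3.99-fold above ovary. The third Col15a1 probe, dim but detected on every array, was called in no contrast.

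Among the transmembrane collagens, which stay anchored in the cell membrane, Col17a1 (a hemidesmosome protein of epithelia) was lowest in ovary. It read -2.75 and -2.83 in liver, -5.42 and -4.90 in ovary, and -3.70 and -2.81 in uterus, with ovary 5.18-fold below liver (adjusted p = 0.00478). Both detected Col23a1 probes were highest in uterus, with fitted differences of 11.2-fold and 6.76-fold above liver, the first of them detected on 1 of the 2 liver arrays. Col26a1, a small collagen-like protein first described in testis and ovary, was not detected in liver and stood at -0.02 and -0.23 in ovary and -0.86 and -0.92 in uterus, at least 35.3-fold and 20.7-fold above liver (adjusted p = 0.000655 and 0.000704). Col28a1 was detected on the ovary control array alone, so no fold is given, and its calls in favour of ovary rest on that array.

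**Figure D4:**
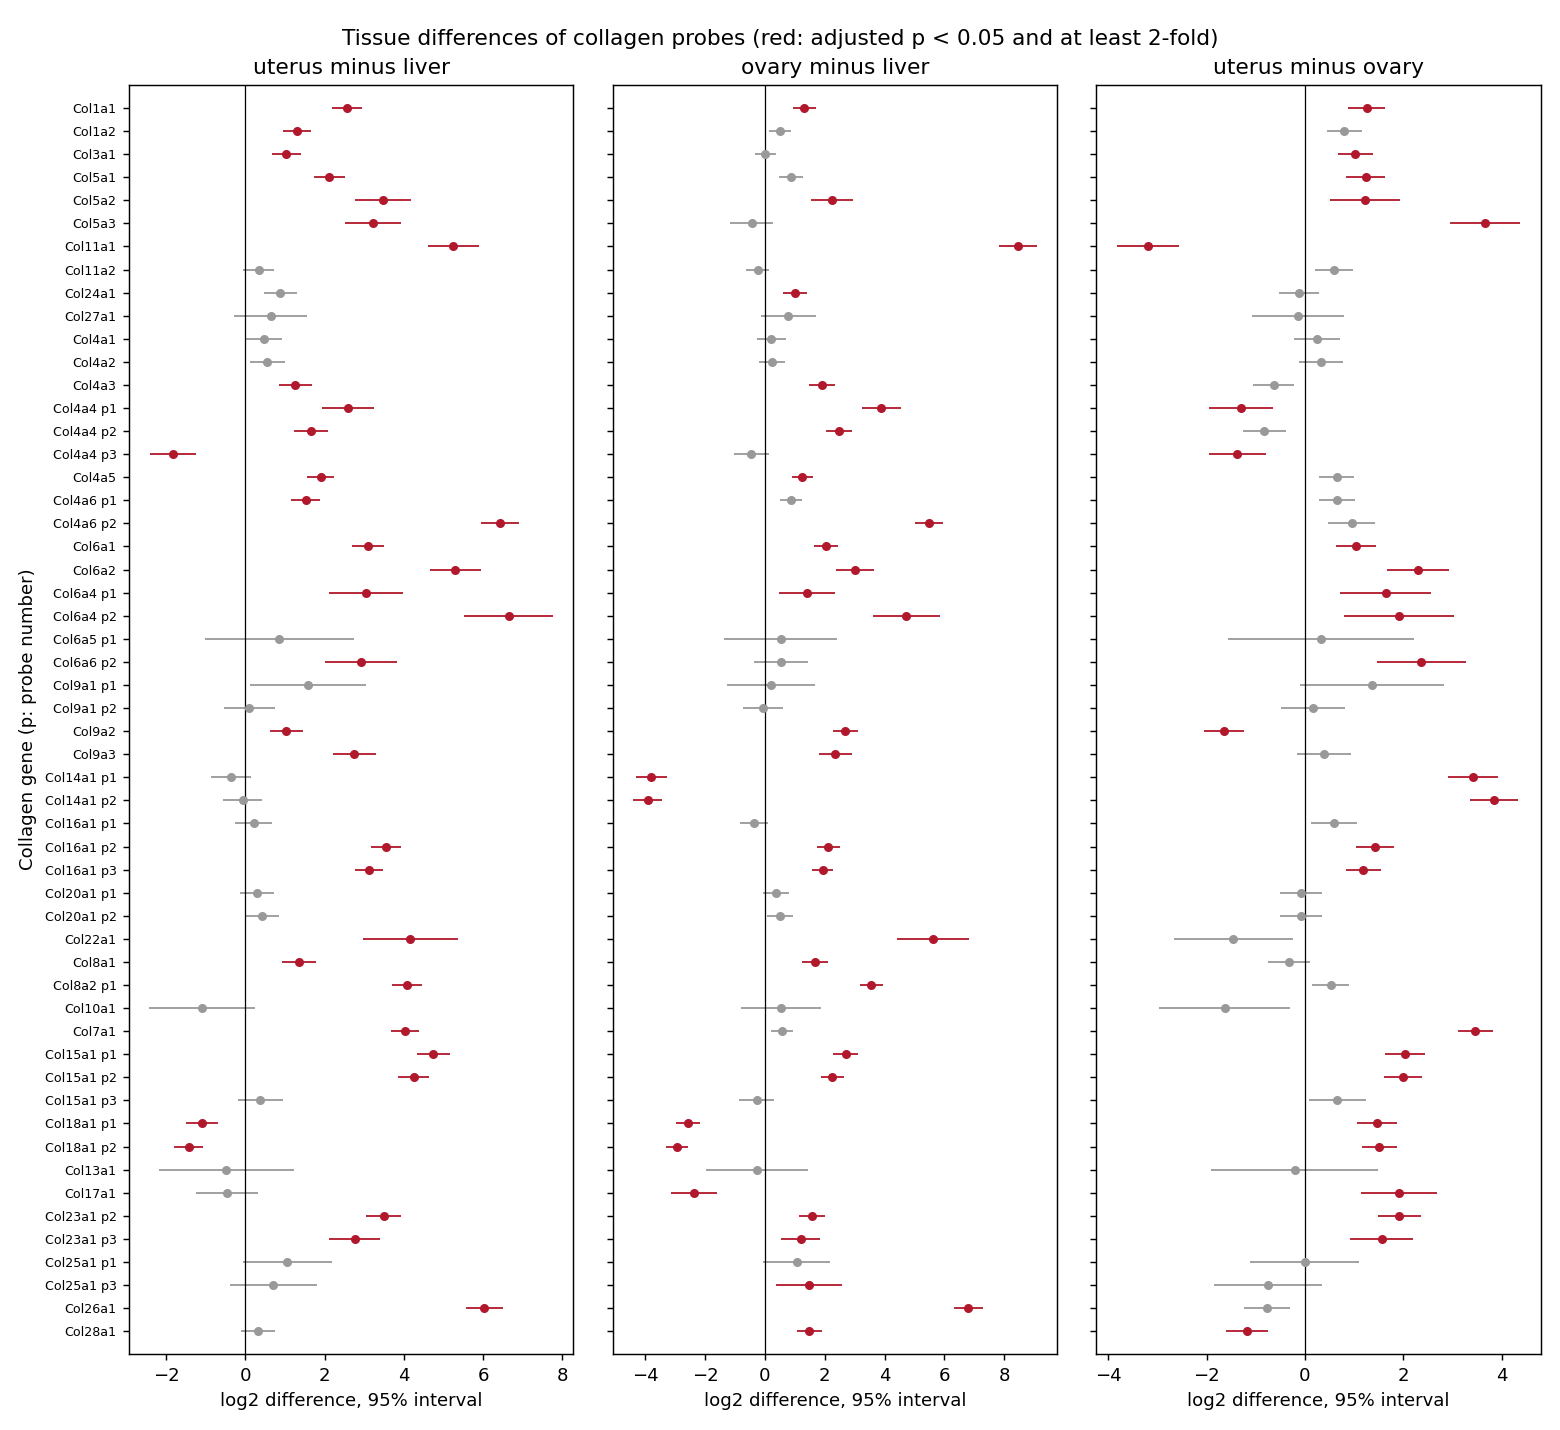
Tissue differences of the 54 detected collagen probes from the limma fit, as log2 differences with 95% intervals, in red where the adjusted p was below 0.05 and the difference at least 2-fold. Points right of 0 are higher in the tissue named first. Where a tissue was not well above background the point is the fitted value, which is not a bound.

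The BHPF ratios of the collagens were small beside these tissue differences. A BHPF ratio is the log2 level of the BHPF pool minus that of the control pool of the same tissue, with 1 array on each side and no test. At least 2-fold in either direction were 2 of 43 collagen probes that could be compared in liver (7.21% of all probes), 2 of 53 in ovary (1.42%) and 0 of 50 in uterus (2.79%). In liver 2 were higher and 0 lower, against 6.06% and 1.15% of all probes. In ovary 2 were higher and 0 lower, against 0.752% and 0.666%. In uterus 0 were higher and 0 lower, against 1.93% and 0.859%. As a yardstick for the array alone, the ratio of repeated spots of 1 probe had an SD of 0.16. That SD leaves out any difference between mice, RNA pools or labelling reactions. Beyond 2 such SDs (0.32) lay 30.6% of the collagen ratios in liver, 8.16% in ovary and 29.2% in uterus, against 35.5%, 15.1% and 20.9% of all probes detected on both arrays.

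In liver, the median ratio of the 36 collagen probes detected on both arrays was 0.05, against 0.08 for all probes so detected. Both 2-fold probes were higher with BHPF and not detected in the control: the first Col25a1 probe (-5.64 and -4.31, at least 2.49-fold) and Col13a1 (-5.46 and -4.42, at least 2.06-fold). The third Col25a1 probe, detected on both arrays, had a ratio of 0.79. The next highest ratios were those of the second Col6a4 probe (0.90) and Col27a1 (0.87, from -0.83 to 0.04). These counts move with the scaling: on the 50th percentile, which shifts the median ratio of all probes from 0.06 to -0.22, 1 probe was 2-fold higher and 2 lower, and with quantile normalization 0 were higher and 2 lower. With normexp background correction 0 were higher and 0 lower.

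The lowest liver ratios were those of Col5a3, from -1.83 to -2.80 (-0.98), and of Col6a5, from -2.65 to -3.58 (-0.93). Next came Col4a2 (-0.42) and Col4a1 (-0.41), the pair with neighbouring starts. Col4a1 was spotted 10 times on each array. The 9 spots kept for the control averaged 2.65 with an SD of 0.05 and the 6 kept for BHPF averaged 2.24 with an SD of 0.04, so these groups of spots stood far apart, which speaks to the measurement of these 2 pools and not to the mice. Col4a3 was lower too, by a ratio of -0.28. Beside these values, the smooth muscle list had a median liver ratio of -0.52 with 6 of 7 probes below 0, the fibroblast list -0.14 with 5 of 7 below 0, the endothelial list -0.06 with 5 of 8 below 0, and the hepatic stellate list 0.07 with 1 of 6 below 0. Of all probes detected on both liver arrays 39.5% were below 0. What part these lists had in the collagen ratios was not tested. Col1a1, Col1a2 and Col3a1 had liver ratios of 0.06, 0.08 and 0.03.

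In ovary the collagen ratios had a median of 0.02 over 49 probes (0.02 for all probes) and 45 of them within 2 spot SDs. Col13a1, a transmembrane collagen, was not well above background in the control at -6.29 and stood at -4.14 with BHPF, at least 4.44-fold higher. Col6a5 stood at -3.29 in the control and -1.87 with BHPF, a ratio of 1.42 (2.67-fold). The next highest were Col17a1 (0.52), Col9a2 (0.35) and Col11a2 (0.30). The lowest ratios were those of the second Col6a4 probe (-0.55), Col4a5 (-0.28), Col24a1 (-0.25), the first Col18a1 probe (-0.24) and the first Col14a1 probe (-0.22). Col1a1, Col1a2 and Col3a1 had ovary ratios of -0.09, -0.02 and 0.05.

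In uterus no collagen probe reached 2-fold, and most lay a little below 0. By the scanner labels 35 of 48 collagen ratios were negative, against 45.2% of all probes, with a median of -0.13 against 0.03 for all. With the uterus columns as the authors' table heads them, the same 35 would be positive, and the collagen median in that table was 0.13. The part of chance in this was not tested. Among these 48, Col6a5 (-1.86 to -2.65) had the lowest ratio at -0.79, then Col22a1 (-0.78), the third Col25a1 probe (-0.68) and Col6a2 (-0.53). Col4a3 was lower by a ratio of -0.52. The first Col9a1 probe read -4.45 in the control uterus and, not detected, -5.00 with BHPF, with -6.96 and -5.64, both not detected, in liver and -5.96 and -6.23 in ovary, where it was detected on the control array alone. The third Col25a1 probe stood at -3.93 and -3.14 in liver, -2.03 and -2.11 in ovary, and -2.48 and -3.17 in uterus. The type V chains Col5a2 and Col5a1 had -0.44 and -0.35, while Col1a1, Col1a2 and Col3a1 had -0.15, 0.11 and -0.05. Higher with BHPF were Col17a1 (0.90, from -3.70 to -2.81), the third Col23a1 probe (0.63), the first Col6a4 probe (0.40, from -4.63 to -4.22), the first Col4a4 probe (0.22) and Col7a1 (0.16). For several of these genes the direction depends on the probe. The second probes of Col6a4 (-0.19, from 2.54 to 2.35), Col4a4 (-0.22, from 0.43 to 0.21) and Col23a1 (-0.10) were below 0. The first Col25a1 probe, unlike the third, was above 0 (0.09).

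Marker lists of the cells that make collagen moved in both directions in uterus. Of the 7 fibroblast and mesenchyme probes 1 was below 0 in uterus, with a list median of 0.22, the smooth muscle list had a median of -0.03, and the endothelial list had 7 of 8 probes below 0 with a median of -0.10. Adipocyte genes were below 0 on 8 of 8 probes in uterus with a median of -0.87, whereas their median was 0.34 in ovary, with 3 of 9 probes at least 2-fold higher, and -0.16 in liver, with 1 of 8 at least 2-fold lower. The hepatocyte rise given above was in this same pool. The Col18a1 ratios in uterus were 0.05 and 0.09. The part of any of these lists in the collagen ratios was not tested.

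**Figure D5:**
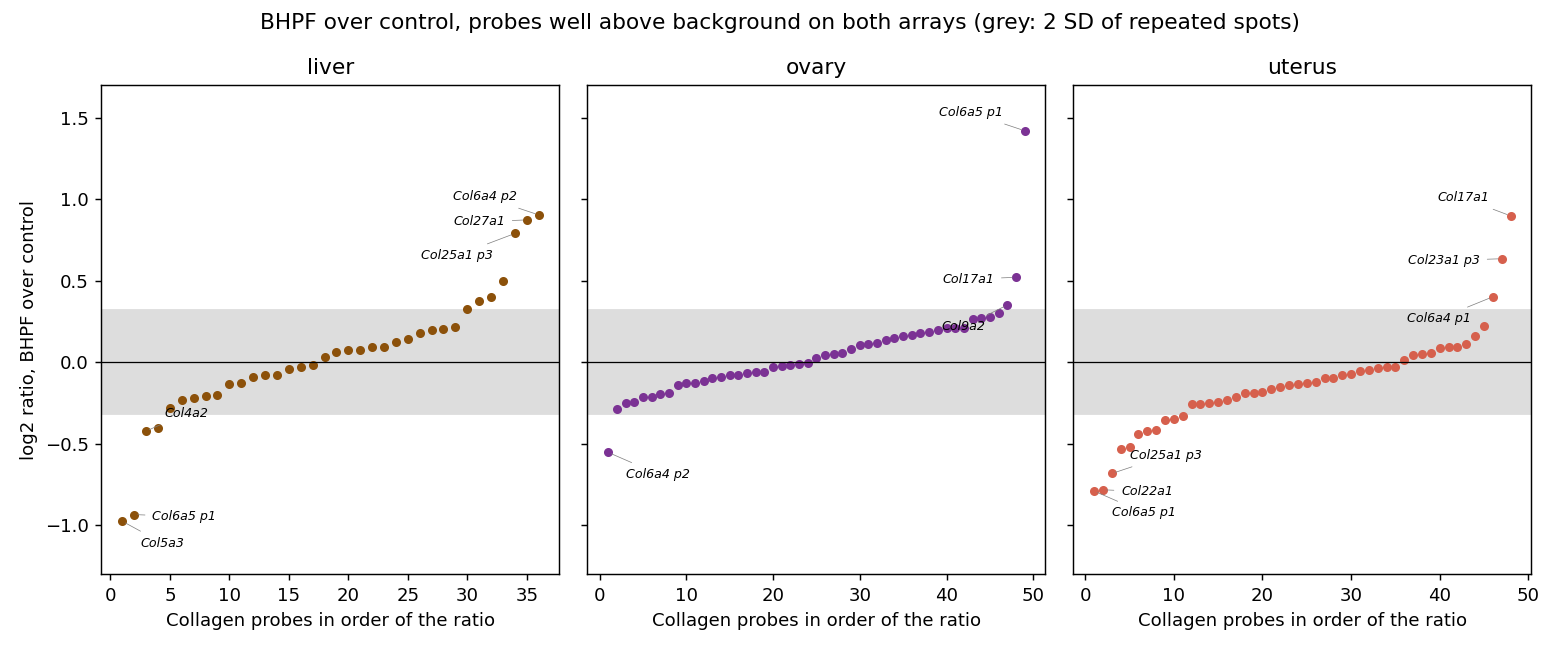
Log2 ratios of BHPF over control for collagen probes detected on both arrays of a tissue, each panel in order of the ratio, with the band of 2 SDs of repeated spots (0.32) in grey. Only Col6a5 in ovary passes 2-fold, and more uterus points lie below 0 (35 of 48) than above.

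A BHPF effect shared by the 3 tissues was found for no collagen probe. In the limma fit 0 of 54 passed an adjusted p of 0.05 (0% of all 44119 probes) and 1 had an unadjusted p under 0.05 (5.22% of all probes), and 0 passed in any alternative fit, where 1 to 7 had an unadjusted p under 0.05. That 1 was Col28a1, detected on a single array. The lowest adjusted p among collagens was 0.77. With 2 residual degrees of freedom, a count of 0 does not show that a shared effect is absent. The standard error of the common effect had a median of 0.14 over the collagen probes, so that the 95% interval of Col1a1, for example, ran from -0.37 to 0.25 around -0.06, and that of Col3a1 from -0.28 to 0.30 around 0.01.

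Genes that modify and assemble collagen were called in both directions between the tissues. Of 45 tested probes from a list of 32 genes, 21 were called higher in uterus than liver and 10 higher in liver, where 21.1% and 15.2% of all probes were. Between uterus and ovary the calls were 7 and 5, where 9.33% and 8.53% of all probes were called. The same shares of all probes stand behind the counts of the lists that follow. P4hb and Ppib, general folding enzymes of the secretory pathway, were highest in liver (P4hb 3.85 and 3.96, against 2.37 and 2.62 in ovary and 2.42 and 2.46 in uterus). Lox, the enzyme that cross-links fibrils, read on its brighter probe -5.31 and -6.00 in liver, -1.72 and -2.22 in ovary, and 0.01 and -0.25 in uterus. Plod2, which prepares the telopeptides for such cross-links, was highest in ovary at 1.53 and 1.74, against -0.84 and -0.48 in uterus, and was detected in liver on 1 of 2 arrays. No probe of this list reached 2-fold with BHPF in any tissue, and the median ratios were 0.03 in liver, 0.10 in ovary and -0.06 in uterus.

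The collagen receptors held 1 wide BHPF ratio in uterus. Itga2, the collagen-binding integrin subunit of platelets and epithelia, read -1.84 in the control uterus and -4.21 with BHPF, a ratio of -2.36, and 0.80 and -0.04 in the ovaries, a ratio of -0.84. It was the only 1 of 12 comparable receptor probes at least 2-fold lower in uterus. Gp6, the platelet collagen receptor, was 2-fold lower in liver (-2.60 to -3.87). Ddr2, a receptor kinase for fibrillar collagen, was lowest in liver and highest in uterus on its first probe, from -2.52 and -2.23 in liver to 0.14 and 0.53 in ovary and 1.91 and 2.05 in uterus. Of the 14 receptor probes 7 were called higher in uterus than liver and 3 lower.

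The proteoglycans and glycoproteins that coat fibrils, and the other basement membrane proteins, were mostly higher in uterus than liver. Of 12 tested fibril-coat probes 8 were called higher in uterus than liver and 0 lower, and between uterus and ovary 4 and 3. Ogn (osteoglycin) read -1.10 and -1.07 in liver, 3.61 and 3.51 in ovary, and 3.28 and 2.81 in uterus. Of 23 basement membrane probes 17 were called higher in uterus than liver and 1 lower. Lamb3, a laminin chain of epithelial anchoring, stood at -1.53 and -1.49 in liver, -4.35 and -4.64 in ovary, and 1.08 and 1.27 in uterus, lowest in ovary as Col17a1 was. The fibril-coat list had 0 probes at 2-fold with BHPF in any tissue. In the basement membrane list 1 probe reached it, Lamc3 in liver, which was not detected in the control (a log2 ratio of at least 1.11).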

How the data were processed

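RNA pooled from 3 mice per tissue and treatment was measured on single-colour (Cy3) Agilent arrays. The scanner files deposited by the authors hold, for each spot, a processed signal intensity from which Feature Extraction had already subtracted background (version 9.1 per the labels, 11.5.1.1 per the file headers). The authors also deposited a table of normalized log2 values, which was used only as an alternative. Its scale matched each scanner array within 0.001 log2 for about 99.1% of probes, apart from its exchanged uterus columns. Spots of 1 probe were averaged, flagged spots and control spots were left out, and log2 signals were reduced by each array's 75th percentile. Transcript accessions were named through RefSeq, and 26762 of 55681 probes gained a symbol.

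Tissue differences and a BHPF effect common to the tissues were fitted with limma 3.58.1 in R 4.3.3 (terms tissue and treatment, 6 arrays, 2 residual degrees of freedom). The p-values were adjusted by Benjamini-Hochberg over 44119 probes. The tissue by treatment interaction is the error of this fit. That error holds both the spread of single pools and any BHPF response that differs between tissues. With 1 array per group these cannot be told apart, so the p-values do not measure the spread of pools alone. Where a probe was not well above background on any array of one side, a fold is a bound against the dimmest signal that was. That bound uses, per array, the higher of this lowest signal and the probe's own. The members and the gene lists were chosen with earlier results of these data known. The rule for naming took the main chains of each class, the 5 largest BHPF ratios each way per tissue, the 3 largest tissue differences each way, and genes whose probes disagree. For some of these probes only a ratio or the values of 1 or 2 tissues are given. Col6a6, Col8a1, Col8a2, Col9a3, Col16a1, Col20a1, Col28a1, the partner genes and the tissue differences of Col23a1 were named after their values were seen. The fit was tested on simulated data, where it recovered most tissue differences of several fold but few common BHPF effects below very large ones. The alternatives were normexp background correction with an offset of 50, scaling on the 50th percentile or by quantiles, a percentile over detected probes, other filters, a 1.5-fold threshold, gene means, the authors' table, other variance settings, and leaving out each array.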

Additional observations from a re-analysis of the deposited data

Results flagged for a closer look

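Col6a5, a chain of the type VI family, stood out because its BHPF ratio had opposite signs in different tissues on its first probe, which was well above background on all 6 arrays. The log2 ratio was -0.934 in liver, 1.42 in ovary and -0.79 in uterus. Each tissue has 1 control and 1 BHPF pool, so the difference between the tissues was not tested. The second Col6a5 probe was detected on no array and gives no second reading.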

How the results depend on the processing

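Pools could not be paired by animal, because each tissue and treatment has a single array and the labels carry no replicate numbers. In the fit of the common BHPF effect, control and BHPF arrays were matched by tissue. In liver the count of collagen probes at least 2-fold higher with BHPF, 2, became 0 with normexp, 1 on the 50th percentile, 0 with quantiles, 0 among probes detected on both arrays, 7 with no filter and 5 at 1.5-fold. The count of 0 lower became 2 on the 50th percentile, 2 with quantiles and 2 at 1.5-fold, and the median fell to -0.27 on the 50th percentile. In ovary the 2 higher became 1 among probes detected on both arrays, and the 0 lower became 2 with no filter. In uterus the 0 higher became 2 at 1.5-fold, the 0 lower became 1 with no filter and 3 at 1.5-fold, and the median became 0.13 in the authors' table as headed.

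For the tissue differences, the 31 probes higher in uterus than liver became 20 and the 27 higher in ovary than liver became 16 when detection on all 6 arrays was required. That filter left 35 of the 54 tested probes, so the shares went from 57.4% to 57.1% and from 50% to 45.7%. The 3 higher in liver than uterus, from 2 genes, became 1 with quantiles, 1 over gene means and 5 by 2-fold on the BHPF arrays alone. The 5 higher in liver than ovary were probes of 3 genes, and over gene means 3 were called. The 5 higher in ovary than uterus became 3 with normexp, 1 in the authors' table under either heading, 1 with detection on all arrays and 9 by 2-fold on the BHPF arrays alone. Leaving out 1 array at a time gave 28 to 35 (uterus over liver), 3 to 3 (liver over uterus), 24 to 30 (ovary over liver), 5 to 5 (liver over ovary), 3 to 23 (uterus over ovary), 0 to 6 (ovary over uterus) and 0 to 0 for the common BHPF effect. An array left out leaves 1 pool for its tissue, assumed to vary like the rest.

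Small uncalled differences changed sign. For uterus minus liver, Col14a1 probe 1 became 0.32 with quantiles and 0.0036 on the percentile of detected probes. Its second probe became 0.30 on the percentile of detected probes, 0.14 without the liver BHPF array and 0.059 without the uterus BHPF array, in a range of -0.28 to 0.14 over the arrays left out. Col15a1 probe 3 became -0.073 on the 50th percentile and -0.10 with quantiles. For ovary minus liver, Col3a1 became -0.31 on the 50th percentile, -0.0040 without the liver control array and -0.019 without the ovary BHPF array, in a range of -0.019 to 0.041 over the arrays left out. On the 50th percentile Col4a1 became -0.097 and Col4a2 -0.080, Col10a1 became -0.11 with normexp, and Col15a1 probe 3 became 0.11 on the percentile of detected probes. Of the other single-probe tissue comparisons 1243 kept their direction and call, 88 lost the call and 20 gained one, and of the BHPF ratios 850 moved by less than the spot SD and 123 by more. The cause was not tested. Single arrays limit the precision, and dim probes have bounds only.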
